A study of Mus musculus with 6 samples.

Results

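The genes described here are 8 that act on procollagen inside and just outside the cell: the prolyl 4-hydroxylase alpha subunits P4ha1, P4ha2 and P4ha3, the lysyl hydroxylases Plod1, Plod2 and Plod3, the collagen chaperone Serpinh1 and the procollagen C-proteinase enhancer Pcolce. They were taken by name from the 24063 gene symbols of the deposited transcript tables, with the counts of a symbol's transcripts added together, and all 8 were counted in every library. The libraries came from lung endothelial cells (ECs) of male C57BL6 mice, pulled from digested lung with magnetic beads carrying an antibody to CD31, a surface protein of ECs. The sham operated group had 3 libraries, and the other 3 were made 7 days after unilateral pneumonectomy (PNX), the removal of the left lung, after which the remaining lung grows. Every library was a pool of ECs from 2 mice. The labels name no transgene or drug for either group and give the mice as 8 weeks old, whereas the study's methods give an older age. Replicates 1 and 2 of each group are marked in the labels as re-used from an earlier record (the earlier deposit), and replicate 3 is not (the later deposit).

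Newly made procollagen chains are modified in the endoplasmic reticulum (ER) before they fold. Prolyl 4-hydroxylases, tetramers of alpha subunits with the shared beta subunit P4hb, add the hydroxyl groups that keep the collagen helix stable at body temperature. Lysyl hydroxylases make the hydroxylysines that carry sugars and, in the end regions of fibrillar chains, form the cross-links of the finished fibre. HSP47, the product of Serpinh1, binds the folded procollagen helix and escorts it to the Golgi, and the secreted product of Pcolce speeds the removal of the C-terminal propeptide by BMP1. In the lung these genes are best known from fibroblasts, but ECs use the same enzymes for the collagen IV of their basement membrane.

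At 7 days after PNX the share of reads was at least 1.22 times the sham level within both deposits for 6 of the 8. P4ha1 was close to sham, at 1.03 times in both deposits, and P4ha2 was at 0.94 and 1.18 times. How many of all genes reached 1.22 times within both deposits was not counted. P4ha3 was 4.92 times the sham level in the earlier deposit and 4.78 times in the later one, from a very low base. Serpinh1 was 1.81 and 2.19 times, Pcolce 1.73 and 1.76 times, Plod1 1.37 and 1.73 times, Plod2 1.34 and 1.65 times, and Plod3 1.22 and 1.25 times. When the counts were fitted with the deposit as a replicate block, these 6 genes rose (edgeR, adjusted p under 0.05), a threshold that 11.5% of all genes passed as higher. Without the block 0 of the 8 passed it, as did 0 of all genes tested. The stricter call used by the study, adjusted p under 0.01 and more than 2-fold, was passed by 1 of the 8 with the block and by 0 without it. Of all genes, 3.89% passed that call as higher with the block and 0.0% passed it without.

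Stretches of DNA before the start of the alpha subunit genes and of Serpinh1 are shown, the alpha subunits because they diverge in the values that follow and Serpinh1 because it had the highest level. The sequences are from RefSeq on GRCm38.p6, each 60 bases long and 5′ to 3′ on the gene's strand. They are not the same stretch of each gene: for P4ha1 and P4ha3 the bases 60 to 1 before the start are printed, and for P4ha2 (106 to 47) and Serpinh1 (199 to 140) the window was moved to hold the match. Capitals mark ACGTG or its reverse complement CACGT, a form of the core letters of the hypoxia response element. The form GCGTG was neither searched nor marked.
P4ha1, chr10:59323236-59323295, plus strand: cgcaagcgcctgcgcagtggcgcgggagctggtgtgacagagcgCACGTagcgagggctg
P4ha2, chr11:54100818-54100877, plus strand: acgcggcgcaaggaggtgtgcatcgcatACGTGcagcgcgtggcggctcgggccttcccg
P4ha3, chr7:100285460-100285519, plus strand: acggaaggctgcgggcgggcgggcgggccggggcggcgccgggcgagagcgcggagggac
Serpinh1, chr7:99353379-99353438, minus strand: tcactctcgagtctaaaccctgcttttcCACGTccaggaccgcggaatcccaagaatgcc

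The letters were searched on both strands in the window from 250 bases before to 50 bases after each RefSeq start, which was available for 7 of the 8 members and not for Plod2. P4ha1 held 1 match, beginning 16 bases before the start, P4ha2 held 2, at 78 bases before and 10 bases after it, Plod3 held 1 at 54 bases before, and Serpinh1 held 1 at 171 bases before. P4ha3, Plod1 and Pcolce held no match to ACGTG or CACGT, which says nothing of the form GCGTG. Of all 32851 mouse promoters in the same table, 19.6% held the letters. A match is a description of the letters and not of binding.

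The libraries held between 29526989 and 81282871 counts, the later deposit being the shallower in both groups. Replicates 1 and 2 of a group were nearly within counting noise of each other (chi-square per degree of freedom 1.75 in sham and 1.57 in PNX), whereas replicate 3 stood far from both (67.9 to 86.4). They were therefore counted as 1 sample, so n = 2 per group, and p-values measure only the spread between these samples. The genes' difference between earlier and later deposit ran the same way in both groups (Pearson's r = 0.73 and Spearman's rho = 0.741 across 14290 genes, which are not independent replicates). Markers of ECs were counted in all 6 libraries, and 2 of the 12 fell with the block (edgeR, adjusted p under 0.05). Pecam1, which encodes CD31, was at 2038 to 2494 CPM (counts scaled to the library's total) in sham and 2106 to 2479 CPM in PNX. The summed level of the 12 EC markers was lower in every PNX library, at 10780 to 13140 CPM in sham and 9405 to 10750 in PNX. Of the 12, 5 were below sham in all PNX libraries and 1 was above it in all, with a median log2 fold change of -0.17. The preparations were not ECs alone. The summed level of 10 epithelial markers was 9881 to 9994 CPM in sham and 3054 to 6532 in PNX, that of 8 mesothelial markers 260.5 to 543.7 and 460.3 to 1110, that of 11 macrophage markers 3308 to 6138 and 5785 to 6397, that of 14 fibroblast markers 3020 to 3139 and 2843 to 3750, and that of 12 smooth muscle and pericyte markers 471.5 to 612.3 and 437.4 to 615.5. With the block, 10 of the 14 fibroblast markers rose and 1 fell, and 9 of 11 macrophage markers rose and 1 fell (edgeR, adjusted p under 0.05). At the same threshold 7 of 8 mesothelial markers rose, 8 of 10 epithelial markers fell, and 1 of 12 smooth muscle and pericyte markers rose. Most of the fibroblast sum came from 1 gene, Npnt. Its level in replicates 1 to 3 was 2283, 2328 and 2200 CPM after the sham operation, against 2425, 2416 and 1251 after PNX. The sum therefore says little of the other fibroblast markers. Of the 14, 7 were above sham in all PNX libraries and 0 were below it in all. Their median log2 fold change was 0.893 with the block. No marker of any of the 6 cell types was at 0 in any library. The part of these cells in the values below was not tested, and in bulk samples fewer cells of a type and less RNA per cell cannot be told apart.

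Of the alpha subunits, P4ha1 is the main catalytic subunit in most cells, and its level stood at 41.4, 42.5 and 26.1 TPM (transcripts scaled to length and to the library's total) in sham replicates 1 to 3 and at 42.4, 43.3 and 26.7 TPM in PNX replicates 1 to 3. Replicate 3 was the low library in both groups and the groups overlapped throughout. The fitted log2 fold change of PNX over sham was 0.04 ± 0.34 (SE, 2 samples per group, edgeR adjusted p = 0.987) without the block and 0.04 ± 0.08 (adjusted p = 0.788) with it. Counting error alone left a fold of 0.998 to 1.06 for P4ha1 in the earlier deposit and 0.95 to 1.11 in the later one (exact 95% binomial intervals, which do not cover duplicate PCR reads).

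P4ha2, the second broadly expressed alpha subunit, was measured at 28.7, 29.5 and 15.3 TPM in sham and 26.8, 27.6 and 17.9 TPM in PNX. The earlier PNX libraries lay below and the later one above the sham library of the same deposit, so the deposits did not point the same way. The fold was 0.94 (0.898 to 0.984 from counting error) for the earlier deposit and 1.18 (1.04 to 1.34) in the later one, and the fit gave a log2 fold change of 0.03 ± 0.38 (edgeR adjusted p = 0.991), or 0.07 ± 0.10 with the block (adjusted p = 0.696).

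P4ha3, the least abundant alpha subunit, was found at 0.466, 0.314 and 0.408 TPM in sham and at 1.95, 1.92 and 1.94 TPM in PNX. All PNX libraries lay above all sham libraries, and unlike its relatives P4ha3 showed no drop in replicate 3. The values rest on few reads, 35, 21 and 13 counts in sham and 138, 120 and 54 in PNX. The log2 fold change was 2.28 ± 0.32 (edgeR adjusted p = 0.0931) without and 2.28 ± 0.28 (adjusted p = 0.00173) with the replicate block, and P4ha3 was the 1 member that passed the call with the block. Leaving out PNX replicate 1 from the fit with the block ended that call, with an adjusted p of 0.01 at a log2 fold change of 2.28. In the earlier deposit the fold was 4.92 (3.67 to 6.70 from counting error) and in the later one 4.78 (2.57 to 9.55). Even so P4ha3 made up only a small part of the alpha subunit message, 0.762% ± 0.304 (SD, n = 2) of the summed TPM of P4ha1 to P4ha3 in sham and 3.43% ± 1.06 in PNX. P4ha1 held 60.6% ± 2.63 and 58.4% ± 1.56 of it in sham and PNX. The shares were not tested between groups, since an exact permutation test cannot go below p = 0.33 with 2 samples against 2.

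**Figure D1:**
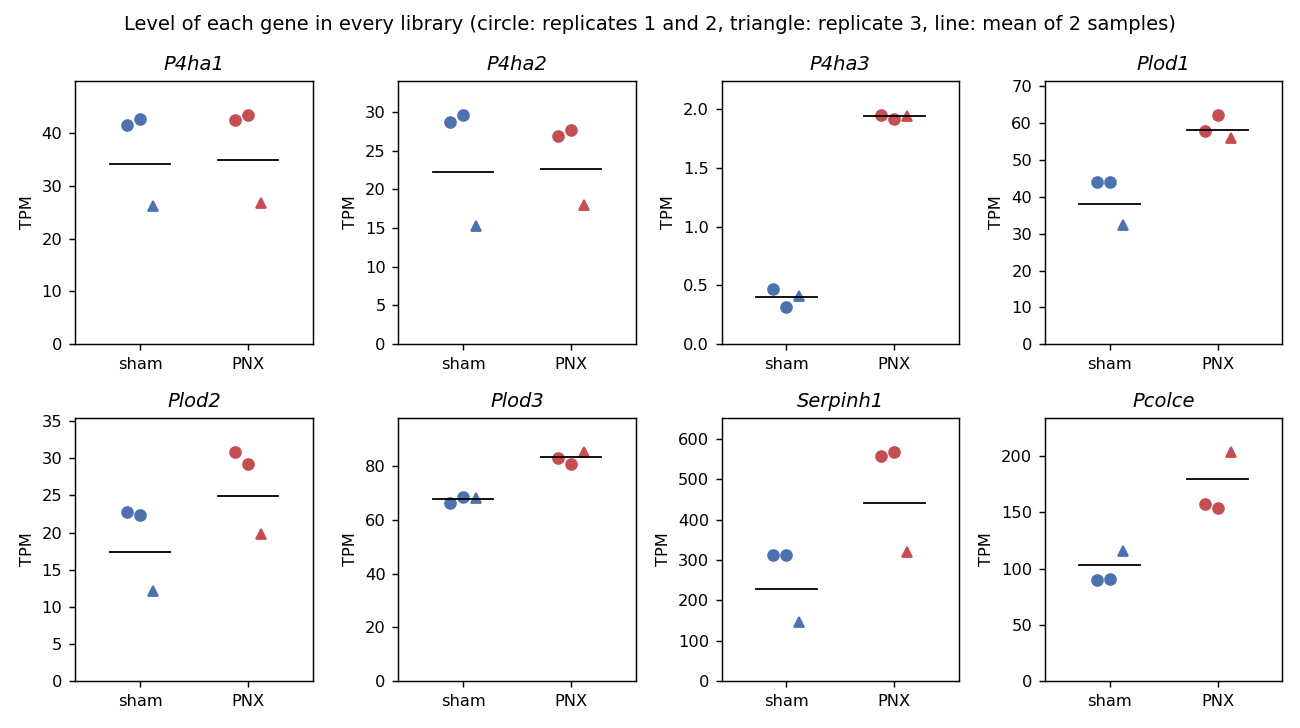
Level of each gene in TPM (y axis, from 0) in the 3 sham and 3 PNX libraries, with circles for replicates 1 and 2, triangles for replicate 3 and a line at the mean of the 2 samples per group. P4ha1 and P4ha2 overlap between groups, P4ha3 stands apart at 0.314 to 0.466 against 1.92 to 1.95 TPM, and for Serpinh1 and Plod2 the triangle is low in both groups.

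Plod1, a lysyl hydroxylase that acts on the helical part of procollagen, was at 43.9, 44.0 and 32.4 TPM in sham and 58.0, 62.1 and 56.1 TPM in PNX. The lowest PNX library was above the highest sham library. Plod1 had a log2 fold change of 0.61 ± 0.19 (edgeR adjusted p = 0.316) without the block and rose by 0.62 ± 0.10 (adjusted p = 0.00641) with it.

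Plod2, the enzyme of the chain ends whose product sets the type of cross-link, was at 22.8, 22.4 and 12.1 TPM in sham and 30.8, 29.3 and 19.8 TPM in PNX. The groups overlapped, because replicate 3 of PNX lay below replicates 1 and 2 of sham, but within each deposit PNX was above sham. The log2 fold change was 0.53 ± 0.38 (edgeR adjusted p = 0.665) without and 0.56 ± 0.10 (adjusted p = 0.00753) with the block. Leaving out sham replicate 3 from the fit without the block moved it to 0.16, and leaving out PNX replicate 3 to 0.81. Plod2 also overlaps exons of Gm38391 on the opposite strand, and counting was not stated to use strand.

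The deposited table lists Plod2 as 2 transcripts that differ by an alternative exon, shown here because this exon separates the long from the short form of the enzyme. It is exon 14 of 20 in the long transcript, 63 bases or 21 codons long, at chr9:92601985-92602047 on the plus strand of GRCm38, and it is printed in capitals between 15 bases of each neighbouring exon from the GENCODE vM21 transcript.
Plod2 exon 14: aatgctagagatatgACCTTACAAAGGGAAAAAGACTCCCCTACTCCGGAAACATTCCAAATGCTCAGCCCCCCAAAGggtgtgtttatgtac
The count of the long transcript exceeded that of the short one by 15, 21 and 3 in sham and by 12, 16 and 5 in PNX. The table counts a read on every transcript that it matches, so the 2 Plod2 transcripts never differed by more than 0.892% and these counts do not give the share of each form.

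Plod3, which also carries glycosyltransferase activity, was at 66.3, 68.4 and 68.2 TPM in sham and 82.9, 80.9 and 85.3 TPM in PNX. The deposits hardly differed and the groups did not overlap. Its log2 fold change was 0.31 ± 0.12 (edgeR adjusted p = 0.413) without the block, and it rose by 0.31 ± 0.08 (adjusted p = 0.0314) with it, the smallest rise among the 6. DESeq2 with the same block gave Plod3 an adjusted p of 0.0882. Plod3 (chr5:136987019-136996648, plus strand) shares exonic sequence with Znhit1 on the opposite strand and with Mir702, and counting was not stated to use strand, so reads of these genes cannot be told apart there.

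Of the summed TPM of the lysyl hydroxylases, Plod3 held 55.4% ± 7.24 (SD, n = 2) in sham and 50.3% ± 3.74 in PNX, Plod1 30.8% ± 2.88 and 34.8% ± 0.0918, and Plod2 13.8% ± 4.36 and 14.9% ± 3.65. Plod3 was thus the most abundant lysyl hydroxylase message in both groups, and on this scale Plod2 the least. Whether the mix differed between groups was not tested. With TPM summed over transcripts Plod2, listed as 2 transcripts that share reads, held 24.2% in sham and 25.9% in PNX, and in sham replicates 1 and 2 it then lay above Plod1 (29.4% against 28.1% in replicate 1).

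Serpinh1 had the highest level of the 8 genes, 311.8, 312.8 and 145.8 TPM in sham and 558.7, 567.3 and 318.6 TPM in PNX. Replicate 3 was the low library in both groups, and its PNX value lay just above the sham values of the earlier deposit. The log2 fold change was 0.95 ± 0.48 (edgeR adjusted p = 0.525) without the block, and with it Serpinh1 rose by 0.99 ± 0.12 (adjusted p = 0.00198), just under the 2-fold of the call. The fold was 1.81 (1.79 to 1.83 from counting error) for the earlier deposit and 2.19 (2.11 to 2.27) in the later one. Without the block, leaving out sham replicate 3 moved the Serpinh1 value to 0.52 and leaving out PNX replicate 3 to 1.31.

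Pcolce, the secreted enhancer of BMP1, was at 90.1, 91.0 and 116 TPM in sham and 157, 154 and 204 TPM in PNX. Replicate 3 was here the high library in both groups, the reverse of Serpinh1, and the groups did not overlap. The log2 fold change was 0.80 ± 0.21 (edgeR adjusted p = 0.232) without the block, and Pcolce rose by 0.80 ± 0.08 with it, at the lowest adjusted p of the 8 (0.000654). Pcolce (chr5:137605103-137613784, minus strand) overlaps exons of Fbxo24 on the same strand, which had 426 counts in the 6 libraries together, and of the antisense gene Gm36266.

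**Figure D2:**
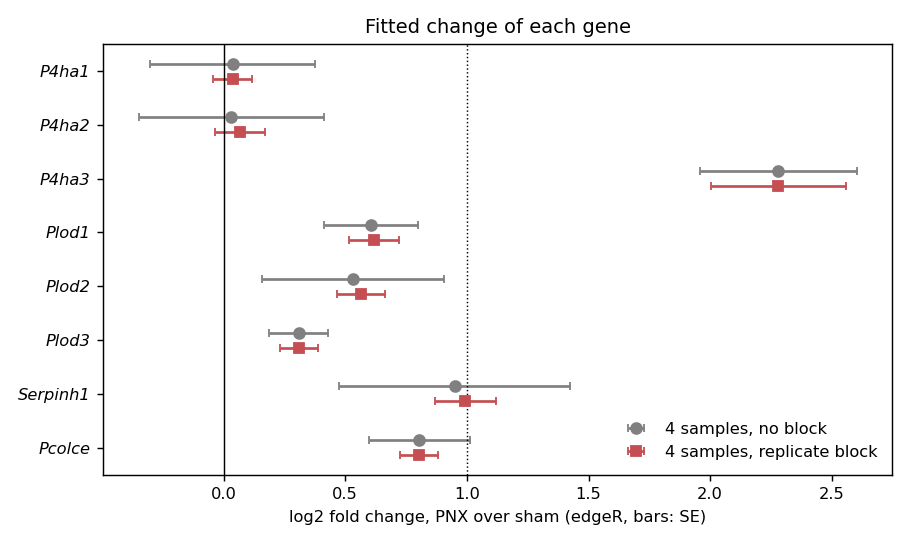
Log2 fold change of PNX over sham (x axis) for each gene from edgeR with 4 samples, without (grey circles) and with (red squares) the replicate block, bars being the SE. The estimates hardly move between fits while the bars shorten, for Serpinh1 from 0.48 to 0.12, and P4ha3 alone lies beyond the dotted line at 1.

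Across all 16598 genes tested, edgeR without the block called 0.0% at adjusted p under 0.01 and more than 2-fold, the lowest adjusted p being 0.0720, although 2076 genes had an unadjusted p under 0.05 and DESeq2 on the same 4 samples called 585. At an unadjusted p under 0.05, 3 of the 8 members were higher (P4ha3, Plod1 and Pcolce) beside 7.54% of all genes. With the replicate block 1 of 8 passed the call as higher, beside 3.89% of all genes. At an adjusted p under 0.05, 6 of 8 were higher beside 11.5% of all genes, and 0 of 8 were lower beside 10.1%. The block left 1 residual degree of freedom in place of 2, so its p-values lean on the spread borrowed across genes. With the 6 libraries as separate replicates, 1 of 8 passed the call as higher (2.28% of all genes) and 4 of 8 were higher at an adjusted p under 0.05 (8.09%). All PNX libraries lay above all sham libraries for 5 of the 8 (P4ha3, Plod1, Plod3, Serpinh1 and Pcolce), as they did for 18.8% of all genes. The members' median log2 fold change was 0.57 without and 0.59 with the block, beside medians of -0.0139 and -0.0129 over all genes.

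Several members also differed between deposits. The level in the earlier deposit was 2.14 times that in the later one for Serpinh1 in sham and 1.77 times in PNX, 1.91 and 1.52 times for P4ha2, 1.87 and 1.51 times for Plod2, and 1.61 times in both groups for P4ha1. Plod1 was at 1.36 and 1.07 times. Plod3 (0.987 and 0.961) and P4ha3 (0.957 and 0.993) hardly moved with the deposit, and Pcolce went the other way, at 0.78 and 0.764 times. The labels do not say what differed between the deposits.

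**Figure D3:**
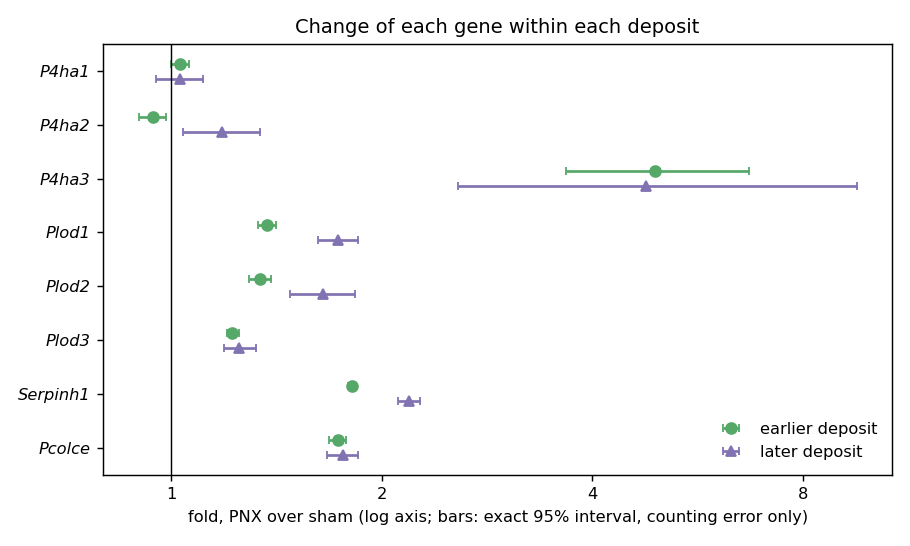
Fold of PNX over sham (x axis, log scale) for each gene within the earlier (green circles) and the later (purple triangles) deposit, bars being exact 95% intervals for counting error only. For 7 genes both deposits lie on the same side of 1, with Plod1 at 1.37 and 1.73 and Serpinh1 at 1.81 and 2.19, and P4ha2 lies on opposite sides at 0.94 and 1.18.

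Ranked by TPM per gene among the 24063 symbols, Serpinh1 stood at place 429 in sham and 214 in PNX, Pcolce at 1112 and 592, Plod3 at 1865 and 1535, and Plod1 at 3535 and 2248. P4ha1 stood at 3983 and 3936, P4ha2 at 5815 and 5781, Plod2 at 6889 and 5329, and P4ha3 at 15628 and 13424. The order was thus led by the chaperone and the enhancer in both groups, with P4ha3 last by a wide margin. Within each library the order by TPM was the same as that of its group. Set against the spread over the deposits, the ranges over the 2 samples overlapped in sham for the neighbours Plod1 and P4ha1, P4ha1 and P4ha2, and P4ha2 and Plod2, and in PNX for P4ha1 and Plod2 and for Plod2 and P4ha2, which had traded places.

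The levels were also set against those of fibrillar substrate chains. The summed TPM of the fibrillar chains Col1a1, Col1a2 and Col3a1 was 273, 278 and 353 in sham and 1254, 1264 and 1870 in PNX. Per 100 TPM of these chains, P4ha1 to P4ha3 together were at 25.9, 26.0 and 11.8 TPM in sham and at 5.68, 5.76 and 2.49 TPM in PNX. The lysyl hydroxylases together were at 48.8, 48.5 and 31.9 TPM and at 13.7, 13.6 and 8.62 TPM. Both ratios were lower in every PNX library than in any sham library. Pcolce was at 33.0, 32.7 and 32.9 TPM per 100 in sham, nearly the same in both deposits, and at 12.5, 12.2 and 10.9 in PNX. Serpinh1 was at 114, 113 and 41.3 TPM and at 44.5, 44.9 and 17.0 TPM, so that its sham replicate 3 fell within the PNX range while PNX was lower within each deposit. These ratios are a description, without a test, and an exact permutation test could not go below p = 0.33. With the block Col1a1, Col1a2 and Col3a1 rose by 2.41, 2.12 and 2.38 on the log2 scale. A ratio to these chains falls for any gene that rose less. The collagen IV chains Col4a1 and Col4a2 rose by 1.02 and 0.96 (edgeR with the block, adjusted p = 0.00227 and 0.00257). They were named after their values were seen, and no ratio to them was taken.

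**Figure D4:**
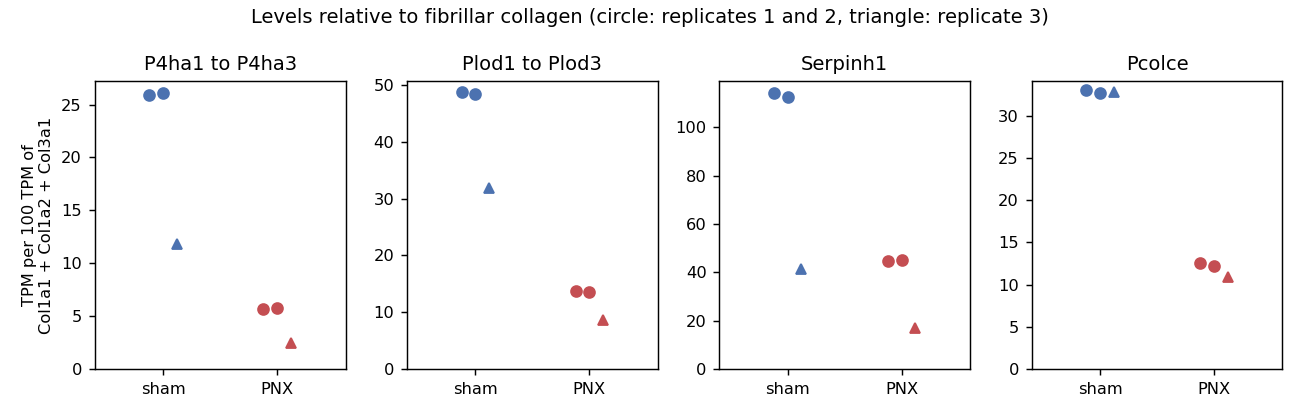
TPM of the prolyl hydroxylase subunits, the lysyl hydroxylases, Serpinh1 and Pcolce per 100 TPM of Col1a1, Col1a2 and Col3a1 together (y axis, from 0) in each library, with circles for replicates 1 and 2 and triangles for replicate 3. All panels but that of Serpinh1 show the PNX libraries below all sham libraries, for Pcolce at 10.9 to 12.5 against 32.7 to 33.0.

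Of 22 tested genes among 23 other genes of collagen modification and processing, 3 passed the call as higher with the block (Adamts2, Fkbp10 and Creb3l1), and at an adjusted p under 0.05, 12 rose and 2 fell. Their median log2 fold change was 0.48 with the block. Adamts2, the procollagen N-proteinase, rose by 1.5 ± 0.10 (edgeR with the block, adjusted p = 9.18e-05), and Fkbp10, an ER prolyl isomerase that works with the lysyl hydroxylases, rose by 1.11 ± 0.08 (adjusted p = 0.000145). At the low end Pcolce2, the relative of Pcolce, had a log2 fold change of -0.63 ± 0.16 with the block (edgeR adjusted p = 0.0316). Without it the value was -0.54 ± 0.42 (adjusted p = 0.704). Pcolce2 stood at 164, 166 and 124 CPM in sham replicates 1 to 3 and 140, 139 and 60.6 CPM in PNX. Colgalt2, a collagen galactosyltransferase, was at -0.43 ± 0.09 with the block (adjusted p = 0.0179). The fitted changes of the 2 Pcolce genes thus had opposite signs. Without the block no gene of this list had an adjusted p under 0.05. P4hb, the beta subunit that P4ha1 to P4ha3 share and a general disulfide isomerase, rose by 0.50 ± 0.09 (adjusted p = 0.0105), and Bmp1, the proteinase that Pcolce enhances, rose by 0.93 ± 0.11 (adjusted p = 0.00162), these being named after their values were seen, as was Creb3l1.

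**Figure D5:**
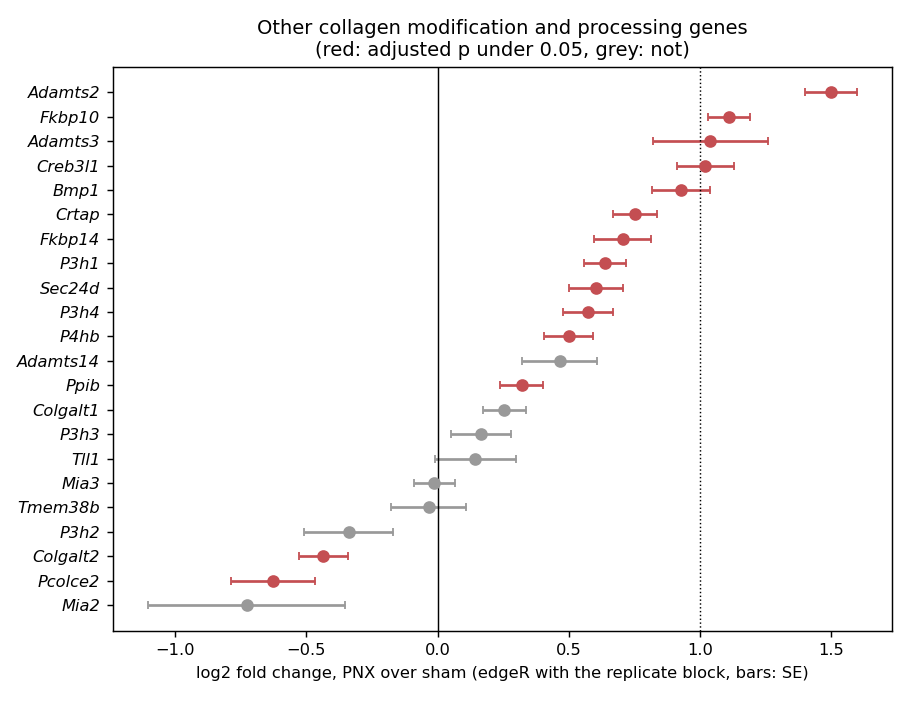
Log2 fold change of PNX over sham (x axis, edgeR with the replicate block, bars being the SE) for the 22 other collagen modification and processing genes tested, red where the adjusted p was under 0.05. Of the red genes 12 lie above 0, led by Adamts2 at 1.5, and 2 lie below, Pcolce2 at -0.63 and Colgalt2 at -0.43.

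Among the collagen chains themselves, of 17 fibrillar and basement membrane chains tested, 9 passed the call as higher with the block and 12 rose and 1 fell at an adjusted p under 0.05, with a median log2 fold change of 1.00 without the block. Col24a1 and Col5a3, minor fibrillar chains, stood at 5.87 ± 0.29 and 2.86 ± 0.10 (edgeR with the block, adjusted p = 2.67e-05 and 1.32e-05), the former from a sham level under 1 CPM. Col4a3, a basement membrane chain shared with the alveolar epithelium, fell by 0.58 on the log2 scale with the block (edgeR adjusted p = 0.015). Without it Col4a3 was at -0.465 (adjusted p = 0.894). Col11a2 stood at -0.30 with the block (adjusted p = 0.274).

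Lists of hypoxia response, heat shock, ER chaperone and cell division genes were counted in the same way. P4ha1, P4ha2 and Plod2 are textbook targets of the hypoxia-inducible factor, and of 18 genes of the hypoxia response 5 rose and 4 fell with the block at an adjusted p under 0.05, with a median log2 fold change of -0.11 without the block. Egln3 and Hk2 were at the high end (1.94 ± 0.17, edgeR adjusted p = 0.000407, and 0.59 ± 0.12, adjusted p = 0.0138, with the block) and Bnip3 and Pfkfb3 at the low end (-0.57 ± 0.10, adjusted p = 0.00715, and -0.50 ± 0.10, adjusted p = 0.0144). The product of Serpinh1 is a heat shock protein, and 0 of 10 heat shock genes passed in either direction, with Hspe1 at 0.30 and Hspa1b at -0.27 (adjusted p = 0.0796 and 0.0987), Hsp90aa1 at 0.23 and Hspa1a at -0.25 (0.168 and 0.115). Of 14 ER chaperone genes 10 rose and 0 fell, Sdf2l1 by 0.87 ± 0.12 (adjusted p = 0.00247) and Pdia4 by 0.57 ± 0.08 (adjusted p = 0.00407), while Dnajb9 stood at -0.16 and Dnajc3 at -0.07 (adjusted p = 0.215 and 0.586). All 12 cell division genes tested rose with the block, Cenpf by 3.74 ± 0.16 and Bub1 by 2.56 ± 0.11 (adjusted p = 1.84e-05 and 1.73e-05), with Cdk1 at 3.26 and Kif11 at 2.79 (both adjusted p = 1.32e-05). Without the block no gene of any of these lists passed the call. For all lists the background with the block is that given above, 11.5% of all genes higher and 10.1% lower at an adjusted p under 0.05.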

How the data were processed

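RNA of 6 pooled EC libraries was sequenced by the authors, who aligned the reads with STAR to mm10 per the submitters' processing notes and deposited a table per library with a count, an FPKM and a TPM for each of 33068 RefSeq transcripts. The deposited counts were whole numbers, and a read that matched several transcripts of a symbol entered the count of all of them. Counts were summed per symbol and tested with edgeR 4.0.16 (R 4.3.3; TMM, filterByExpr, quasi-likelihood test, Benjamini-Hochberg adjustment over 16598 genes), with replicates 1 and 2 of a group added into 1 sample. DESeq2 1.42.0 and limma 3.58.1 served as alternatives. Levels are the deposited TPM of a gene's transcript with the highest total, in place of the planned sum over transcripts, which counts shared reads repeatedly; this was chosen after seeing the data. The deposited FPKM were used only to repeat the shares. Labels mark replicates 1 and 2 as re-used, which pairs the samples by deposit, and the block fit is given beside each result. Members and lists were chosen with earlier results of these data known. Named from each other list were up to 4 genes, the 2 highest and 2 lowest log2 fold changes without the block at a mean count of at least 50, and exceptions are stated. Intervals are exact 95% binomial. Each SE of an edgeR log2 fold change was worked back from the test, as its absolute value over the square root of the quasi-likelihood F. Positions are from GENCODE vM21.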

Additional observations from a re-analysis of the deposited data

Results flagged for a closer look

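P4ha2 differed in direction between the deposits: the log2 fold of PNX over sham was -0.089 in the earlier deposit and 0.236 in the later one, with the 2 earlier PNX libraries below and the later one above sham. The difference between the deposits was not tested.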

How the results depend on the processing

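Without the replicate block edgeR called 0 genes and 0 members on 4 samples. The same held for edgeR without the block under other scalings, other filters on low counts and the highest transcript alone. It also held for limma-voom on the 4 samples, where P4ha3 had an adjusted p of 0.0756. The count of genes called was 849 with the replicate block, 409 with 6 libraries, 920 with 6 libraries and the block, 585, 927 and 815 with DESeq2 on 4 samples, on 6 libraries and with the block, and 0 to 2 when a library was left out, the 2 without PNX replicate 3. The settings that called 409 to 927 genes each called 1 member, P4ha3. With the block it was not called without PNX replicate 1, where its edgeR adjusted p was 0.01. The log2 fold change of P4ha3 was 2.28 with the block, 2.30 with 6 libraries and 2.31 with 6 libraries and the block. With DESeq2 it was 2.28 on 4 samples, 2.30 on 6 libraries and 2.28 with the block. At an adjusted p under 0.05 with the block, 3584 genes and 6 members passed. Under other scalings, the highest transcript alone, 6 libraries, DESeq2 or leave-outs, all with the block, 5 to 6 members did. Of these, the scalings, the highest transcript and the leave-outs were added after seeing the data. The leave-outs with the block removed only replicate 1 or 2, which nearly duplicate each other. They could therefore not show whether the count depends on 1 deposit. P4ha1 ranged from -0.25 to 0.34 over the leave-outs and was negative without sham replicate 3. P4ha2 was -0.0007 with 6 libraries, -0.0056 with DESeq2 on 6 libraries, -0.0888 in the earlier deposit alone, and ranged from -0.34 to 0.30 over the leave-outs, negative without sham replicate 3. The other 6 members kept a positive sign in all 21 alternatives. With TPM summed over transcripts P4ha2 held 55.7% and P4ha1 43.7% of the alpha subunits in sham, reversing their order, and Plod2 24.2% in place of 13.8% of the lysyl hydroxylases, since P4ha2 and Plod2 are each listed as 2 transcripts sharing reads. For the other reversals the cause was not tested. Depth limits P4ha3 most, at 13 to 35 counts in sham.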

Other observations

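Likeness to each member was taken as the smallest root mean square difference of centred log2 CPM over the 6 libraries. The 14119 genes compared included the members, which were then left out. The genes most like each member were Snai2 and Mxra7 for P4ha1 (0.0261 and 0.0305), Serpinb6b and Snord47 for P4ha2 (0.0239 and 0.0484), Spc25 and Chek1 for P4ha3 (0.147 and 0.151), Cbx2 and Vash1 for Plod1 (0.0366 and 0.0387), Pdpn and Slc45a3 for Plod2 (0.0651 and 0.066), Obfc1 and Rnpep for Plod3 (0.0131 and 0.0174), Emp1 and Hoxd8 for Serpinh1 (0.116 and 0.122), and Glb1 and Fhl3 for Pcolce (0.0154 and 0.0381). These are descriptions over libraries that share a deposit and, for replicates 1 and 2, most of their variation.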
